A study of Mus musculus with 2 samples.

Results

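Open alternative promoters inside genes were described in mouse calf muscle, as 1512 of 68349 open sites (2.21%). An open site was a place where a DNase-seq peak of each replicate overlapped by at least 1 bp, in the stricter of the peak lists deposited for each library. It was taken as an internal promoter where its midpoint lay within 500 bp of a transcription start site (TSS) of a protein-coding transcript in GENCODE. That TSS had to lie more than 5 kb downstream of the most upstream protein-coding TSS of its gene and more than 1 kb from every TSS of another gene. The rule used the positions of peaks and the annotation, so signal entered the choice only through the peak call, which leaves out weak sites. Footprints and base composition were not used in the choice. The 1512 internal promoters lay in 1025 genes, at 1340 nearest TSSs. The TSSs of a gene up to 5 kb from its most upstream TSS are called its first promoter.

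DNase-seq sequences the ends that DNase I cuts in DNA that nucleosomes or other proteins do not cover, and a footprint is a short stretch inside an open site that is cut less than its surroundings. The 2 libraries were biological replicates of 1 group, gastrocnemius of female B6CASTF1/J mice, the F1 cross of C57BL/6J and CAST, at 14 days of age, and no treatment is named. The labels name 3 females for each biosample, so a library is read as a pool of animals, and 1 donor record is given for both. Instruments are named for replicate 2 alone, so differences between the libraries cannot be told apart from differences between sequencing runs.

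Many genes start transcription at more than 1 place. An alternative promoter inside a gene gives a transcript with its own first exon, which can leave the protein unchanged, replace its amino terminus, or make a short protein from the end of the gene alone. Known products of internal promoters in muscle genes are the shorter tropomyosins, the MLC3f light chain, the small ankyrin of the sarcoplasmic reticulum and the short dystrophin Dp71. An open promoter is not always transcribed, and no transcripts were measured here.

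The sequences of 8 of these sites show what the open stretch of an internal promoter looks like, from strong to weak. Each is the part of the open site outside every exon of GENCODE and of curated RefSeq transcripts, read 5′ to 3′ on the strand of the gene from the C57BL/6J reference (mm10, GRCm38.p6), so CAST alleles can differ. Capitals mark bases that lay in a footprint of both replicates.
Sgk1, chr10:21994461-21994665, + strand: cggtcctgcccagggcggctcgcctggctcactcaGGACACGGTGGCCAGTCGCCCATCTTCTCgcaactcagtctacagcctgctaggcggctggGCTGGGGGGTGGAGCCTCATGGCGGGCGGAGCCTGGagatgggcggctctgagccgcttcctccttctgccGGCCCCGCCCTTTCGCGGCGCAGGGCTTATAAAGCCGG
Tpm1, chr9:67043963-67044080, - strand: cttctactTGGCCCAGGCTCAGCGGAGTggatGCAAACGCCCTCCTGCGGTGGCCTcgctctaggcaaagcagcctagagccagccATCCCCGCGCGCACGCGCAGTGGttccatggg
Tpm3, chr3:90079401-90079520, + strand: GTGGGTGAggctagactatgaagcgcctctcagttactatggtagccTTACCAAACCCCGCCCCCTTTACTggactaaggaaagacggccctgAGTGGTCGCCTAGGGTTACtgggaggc
Lpin1, chr12:16589774-16589880, - strand: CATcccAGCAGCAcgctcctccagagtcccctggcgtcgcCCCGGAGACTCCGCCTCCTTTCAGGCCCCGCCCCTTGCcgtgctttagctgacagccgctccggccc
Plec, chr15:76199836-76200020, - strand: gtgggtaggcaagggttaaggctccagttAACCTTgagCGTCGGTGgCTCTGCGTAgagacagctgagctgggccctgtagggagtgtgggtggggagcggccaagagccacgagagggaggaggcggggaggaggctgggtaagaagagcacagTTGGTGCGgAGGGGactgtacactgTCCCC
Speg, chr1:75399901-75400084, + strand: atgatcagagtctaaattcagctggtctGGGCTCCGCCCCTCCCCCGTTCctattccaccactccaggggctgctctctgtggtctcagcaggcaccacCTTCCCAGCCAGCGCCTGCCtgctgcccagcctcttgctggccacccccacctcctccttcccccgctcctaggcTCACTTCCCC
Rcan1, chr16:92400079-92400240, - strand: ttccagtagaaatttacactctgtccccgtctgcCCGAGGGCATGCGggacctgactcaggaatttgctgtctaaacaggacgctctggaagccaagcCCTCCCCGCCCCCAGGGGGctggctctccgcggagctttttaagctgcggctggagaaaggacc
Myl1, chr1:66935367-66935480, - strand: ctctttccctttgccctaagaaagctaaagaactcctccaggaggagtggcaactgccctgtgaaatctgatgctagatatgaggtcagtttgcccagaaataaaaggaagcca
The Sgk1 stretch held 103 footprinted bases of 205, among them a TATA box (TATAAA) and 2 of its 4 GC boxes (GGGCGG, the SP and KLF site, on either strand). GC boxes also lay whole inside the footprints of Tpm3, Lpin1, Speg and Rcan1, 1 in each. The Plec and Speg stretches each held 1 E-box of the form CAGCTG, the site that myogenic factors such as MyoD and myogenin bind, outside the footprints of both replicates. The Myl1 stretch, in the weakest of these 8 sites, held no base footprinted in both replicates and no match to any of the 19 consensus motifs searched. A match describes these letters and is not evidence of binding.

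Internal promoters were weaker than first promoters and stronger than other intronic open sites. The peak signal, the authors' value per peak, had a median of 2.70 in replicate 1 and 2.52 in replicate 2 at internal promoters, with interquartile ranges of 1.43 to 5.91 and 1.37 to 5.30. The 12225 open sites at first promoters, by the same window and distance from other genes, had medians of 4.63 and 4.35. The 18338 intronic open sites more than 1 kb from every annotated TSS had 1.61 and 1.45, and all 68349 open sites had 1.96 and 1.77. The order was the same in both replicates. With 1 group of 2 libraries there is no contrast over samples, so these differences carry no p-value, and percentages below have 95% Wilson intervals that cover counting error over sites or genes alone. The open stretch was 200 bp wide at the median internal promoter, 220 bp at first promoters and 180 bp at intronic sites.

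**Figure D1:**
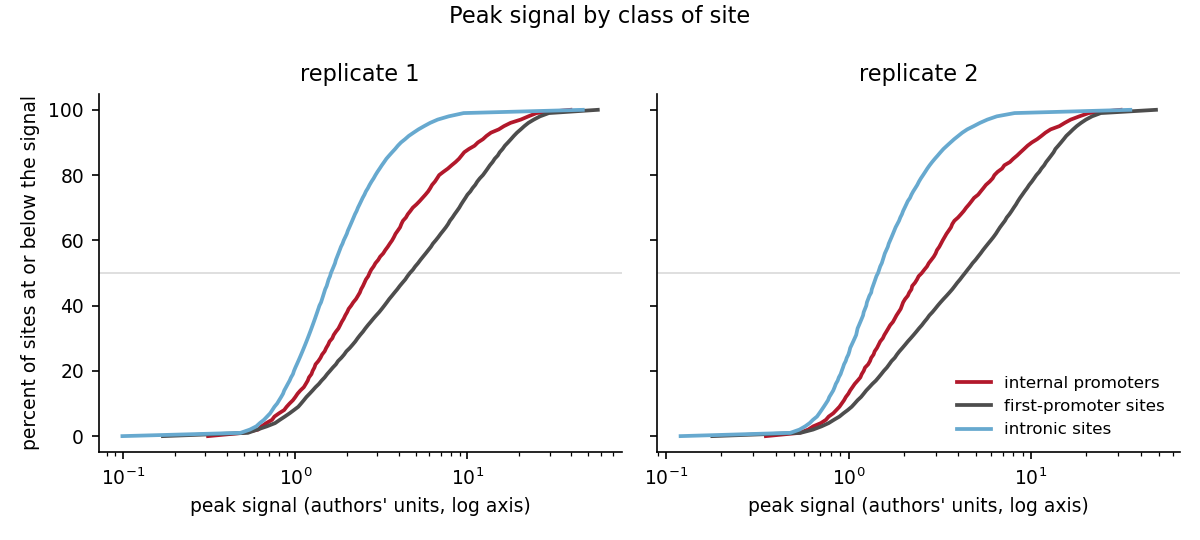
Peak signal (authors' units, log axis) against the percent of sites at or below it, for the 1512 internal promoters, 12225 first-promoter sites and 18338 intronic sites, 1 panel per replicate. In both panels the line of the internal promoters runs between the other lines, except at the extreme ends. Its medians are 2.70 and 2.52, against 4.63 and 4.35 at first promoters and 1.61 and 1.45 at intronic sites.

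The rule required a strict peak in both replicates, so sites seen in 1 library alone were left out before the replicates were compared. After centring on all open sites (a median log2 ratio of replicate 2 to replicate 1 of -0.14), the median log2 ratio at internal promoters was 0.01 with an SD over sites of 0.26, and 1 of 1512 (0.0661%) lay over 2-fold apart. Over all open sites 0.373% did. That site was in Platr25, where replicate 1 gave 0.311 and replicate 2 gave 0.631. The next most uneven sites lay in Ppil6, Ptch1 (a hedgehog receptor), Src (a tyrosine kinase) and Gbp9, with centred log2 ratios of -1.0, 0.98, 0.96 and -0.96.

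Within the window set by the rule, more sites had their midpoint upstream of the TSS than downstream. The midpoint lay at a median of -26.0 bp from the nearest TSS, where negative is upstream, and upstream of it at 60.1% (57.6 to 62.6%) of internal promoters. First-promoter sites had a median of -21.0 bp, with 62.3% upstream. Within 200 bp upstream lay 48.1% of internal promoters and 54.6% of first-promoter sites. At the edge of the window, the 133 sites in its last 100 bp had median signals of 1.88 and 1.73, and the 90 sites in the next 100 bp outside it had 1.94 and 1.87.

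**Figure D2:**
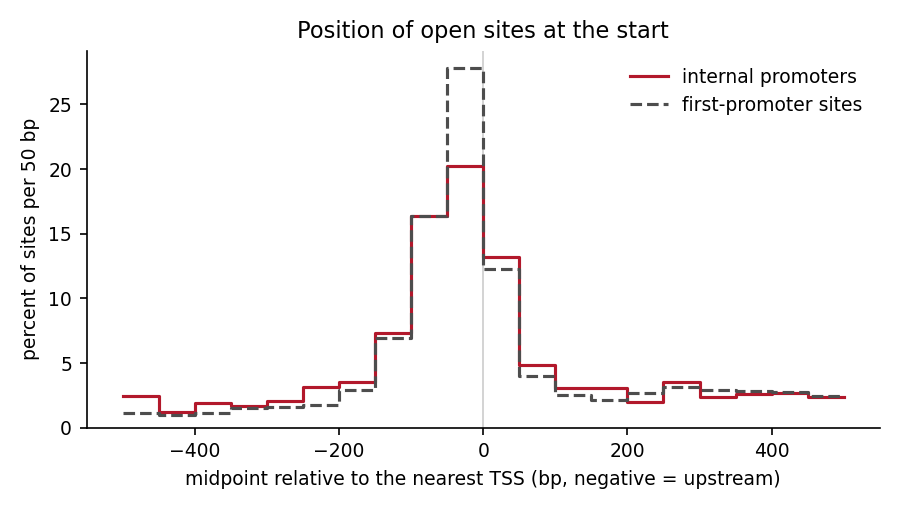
Percent of sites per 50 bp by the position of the midpoint relative to the nearest TSS (bp, negative is upstream), for internal promoters (solid) and first-promoter sites (dashed). Both are highest in the 50 bp before the TSS, which hold 20.2% of internal promoters.

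Along the gene, the TSS of an internal promoter lay at a median of 29.0 kb from the most upstream TSS, with a range of 5.030 to 2857 kb. The largest distance was in Fgfr2, a fibroblast growth factor receptor. Signal was lower at larger distances. The 296 sites at 5 to 10 kb had median signals of 3.92 and 3.37, the 674 sites at 10 to 50 kb had 3.07 and 2.89, the 256 sites at 50 to 100 kb had 2.45 and 2.25, and the 248 sites at 100 to 500 kb had 1.88 and 1.82. The 38 sites farther than 500 kb had 1.8 and 1.60. At the limit of the rule, the 64 sites at 5 to 6 kb had 4.13 and 3.38, and the 114 sites just outside it, at 4 to 5 kb, had 3.61 and 3.33. Introns of the longest transcript from the first promoter held 91.8% of internal promoters, and of those 1388 sites 51.7% were in intron 1 and 22.3% in intron 2. Exons held 6.55%, and 1.65% lay beyond the end of the transcripts that start at the first promoter.

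How often an internal start was open was counted over the annotation. Of 9302 internal TSSs that met the distance rules, 2071 (22.3%, 21.4 to 23.1%) had an open site within 500 bp, and of 4785 genes with such a TSS, 21.4% held an internal promoter. By comparison 66.9% of these 4785 genes and 58.7% of 21853 protein-coding genes had an open site at the first promoter. First promoters were counted here with no limit on the distance to other genes. Of the 1025 genes, 690 had 1 open internal site, 241 had 2 and 94 had 3 or more. Neighbouring sites often lay close together: joined where midpoints lay within 1 kb of the next, they formed 1193 clusters, and 131 genes (12.8%) had 2 or more clusters. In the 335 genes with 2 or more sites, the strongest exceeded the weakest by a median of 2.43-fold in mean signal (interquartile range 1.58 to 4.29).

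Genes with an open internal promoter had an open first promoter in 643 of 1025 cases, 62.7% (59.7 to 65.6%). Of the 3760 genes with an internal TSS but no open internal site, 68.0% (66.5 to 69.5%) had an open first promoter. Read the other way, an internal promoter was open in 20.1% (18.7 to 21.5%) of genes with an open first promoter and in 24.1% (22.1 to 26.3%) of genes without. For the 382 genes with no open site at the first promoter, most had no weaker signal there either: 340 (89.0%) had no strict peak there in either replicate, 276 (72.3%) had no permissive peak, and 258 (67.5%) had no base with a false discovery rate under 0.05 in either replicate. A strict peak was present in 1 replicate alone in 41 genes (10.7%), and in Mecom both replicates had strict peaks there but no open site met the rule. Peaks were counted by a midpoint within 500 bp of the TSS, so a peak centred farther away counted as absent. In Oplah, for example, no strict or permissive peak was counted. The lowest false discovery rate of a base there was 1.59e-27 in replicate 1 and 3.09e-15 in replicate 2.

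Where both were open, the internal promoter was usually the weaker. Each internal site was compared with the strongest open site at the first promoter. That site could lie close to a TSS of another gene. Over 953 sites the median log2 ratio of internal to first promoter was -0.76 (interquartile range -2.13 to 0.64), with -0.75 in replicate 1 and -0.76 in replicate 2. Of these sites 412 (43.2%) were over 2-fold weaker in both replicates, 310 (32.5%) were within 2-fold in both and 147 (15.4%) were over 2-fold stronger in both. By gene, the strongest internal promoter exceeded the first promoter in both replicates in 226 of 643 genes (35.1%) and fell short in both in 388 (60.3%).

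**Figure D3:**
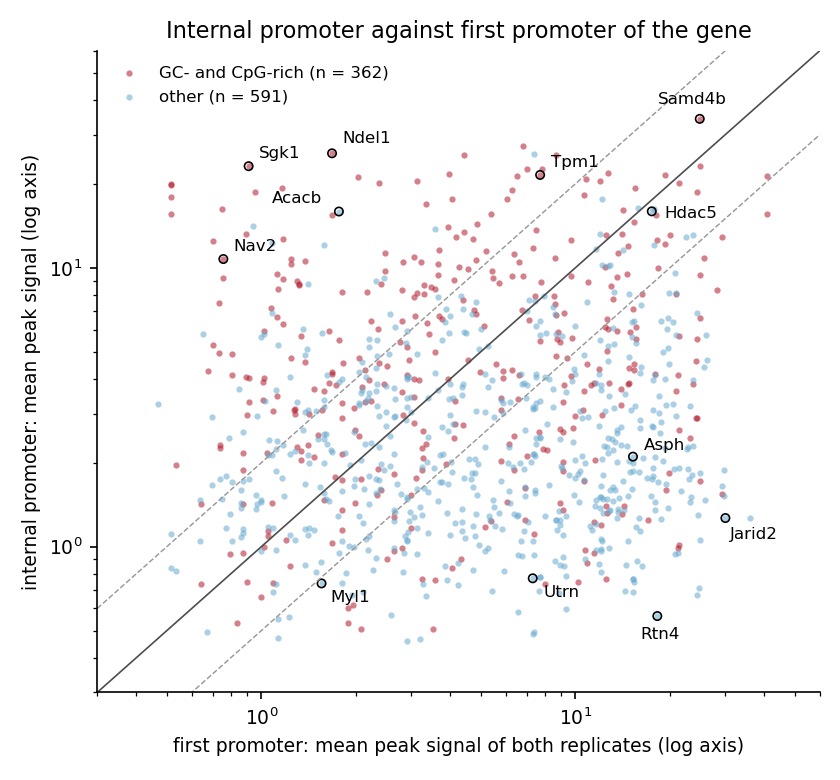
Mean peak signal of both replicates at each internal promoter (vertical, log axis) against that of the first promoter of its gene (horizontal, log axis), for 953 internal promoters, coloured by base composition. The solid line marks equal signal and the dashed lines 2-fold; Sgk1 and Nav2 lie far above it and Rtn4 and Jarid2 far below.

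Base composition split the internal promoters. Mammalian promoters are often CpG islands, stretches rich in G, C and the CpG dinucleotide. By the usual measure (at least 55% G and C and an observed over expected CpG ratio of at least 0.6 in 300 bp), 687 internal promoters, 45.4% (42.9 to 48.0%), were GC- and CpG-rich. First-promoter sites were so in 74.6%, intronic sites in 2.29%, and all open sites in 25.7%. The rich internal promoters had median signals of 4.42 and 4.14, and the other 825 had 2.01 and 1.88. The same split at first promoters gave 5.99 and 5.57 for rich sites and 2.58 and 2.35 for the others. The share of rich sites was 49.7% at 5 to 10 kb, 47.0% at 10 to 50 kb, 43.4% at 50 to 100 kb, 37.9% at 100 to 500 kb and 47.4% of the 38 sites farther away.

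Rich internal promoters lay in a gene with an open first promoter in 52.7% of cases (49.0 to 56.4%), and the others in 71.6% (68.5 to 74.6%). Paired by the composition of both promoters, the ratio took every direction. A rich internal promoter beside a first promoter that was not rich had a median log2 ratio of 0.98 (85 sites), and 68.2% were stronger in both replicates. With both rich, the median was -0.21 (277 sites). With neither rich, it was 0.03 (134 sites). A site that was not rich beside a rich first promoter, the most frequent pair, had a median of -1.56 (457 sites), and 16.8% were stronger. Composition and signal were read from the same sites, and their part in the ratio was not tested.

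The annotation behind an internal start varied. A curated RefSeq transcript began within 100 bp on the same strand at 55.6% (53.0 to 58.0%) of internal promoters, at 67.5% of rich ones and 45.6% of the others. Transcripts with an incomplete start were the sole basis of 8.07%. The first promoter had such a RefSeq start in 693 of the 1025 genes (67.6%), against 76.3% of all 4785 genes with an internal TSS. RefSeq starts were matched by position and strand and not by gene. At first promoters, which could lie close to other genes, a start of another gene could therefore count, here and wherever curated starts at first promoters are given. Among the 382 genes without an open first promoter it was 49.5%, and in 152 of them (39.8%) RefSeq had a start at an open internal promoter and none at the first. In those 152 genes the upstream TSS had no curated RefSeq start. With curated starts at both promoters, 67.8% of 497 internal promoters had an open first promoter and the median log2 ratio was -0.44 (337 sites). This restriction was chosen after values were seen.

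What the internal transcripts encode could be read for 856 sites where transcripts with a complete coding sequence started at both promoters. The longest such internal transcript used the same start codon as a transcript from the first promoter at 289 sites (33.8%). It began translation in a coding stretch of its own at 428 (50%) and inside a coding exon of a first-promoter transcript at 139 (16.2%). At the 567 sites with another start codon the protein had a median of 94.1% of the residues of the longest protein from the first promoter, and 83 (14.6%, 12 to 17.8%) had under 50%. The internal protein was at least as long at 43.8% (39.7 to 48.0%) of sites with an open first promoter and at 57.5% (51.9 to 62.9%) of those without.

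The 10 strongest genes included regulators of chromatin and of microtubule transport. Samd4b, an RNA-binding protein, had peak signals of 39.7 and 28.7 (replicates 1 and 2, the order used from here on), against 27.1 and 22.7 at its first promoter 162 kb upstream. Glo1, glyoxalase 1, had 36.4 and 31.0, Dcun1d4 31.1 and 26.0, and Tollip, an adaptor of innate signalling, 29.8 and 25.8, each with no strict peak at its first promoter. Smarcc1, a core subunit of the SWI/SNF chromatin remodelling complex, had 30.0 and 24.9, against 6.71 and 6.86 at the first promoter. In Glo1, Tollip and Smarcc1 a curated RefSeq start lay at the internal promoter and none at the first. Kat6b, a histone acetyltransferase, had 31.7 and 23.1, and Iffo2 29.6 and 23.2, again with no strict peak at the first promoter. Kat6b had no curated start at its first promoter or at this internal site. Ndel1, a regulator of dynein, had 28.0 and 23.5, against 1.92 and 1.44 upstream. Its curated start too lay at the internal promoter, with none at the first. Bicdl1, a dynein adaptor, had 27.7 and 23.3, against 7.48 and 7.28, and Mapre2, a microtubule end-binding protein, 28.0 and 22.6, against 4.42 and 4.40. In Bicdl1 a curated start lay at the first promoter and none at the internal site. Replicate 1 was the higher in each of these 10, as over all open sites.

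Among genes with no strict peak at the first promoter, the next after Glo1, Dcun1d4, Tollip, Kat6b and Iffo2 were Scoc, Snd1, Stag1, Tbc1d14 and Nfyc. Stag1, a cohesin subunit, had 22.8 and 20.7 at a site 45.6 kb downstream of its most upstream TSS. Snd1, a nuclease of RNA processing, had 23.8 and 21.5 at 5.21 kb. Snd1 and Stag1 had a curated RefSeq start at the internal promoter described and none at the first. Nfyc, a subunit of the CCAAT-binding factor NF-Y, had 23.3 and 18.5, and curated starts lay at both of its promoters.

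The highest ratios over the first promoter were 4 neighbouring sites of Ppp2r3d, a phosphatase regulatory subunit, with 17.3 to 24.2 in replicate 1 and 13.9 to 17.3 in replicate 2, against 0.473 and 0.558 at its first promoter. These lay beyond the end of the transcripts from that promoter, at starts with no curated RefSeq transcript. Words of 32 bases taken along these 4 sites each occurred once on the reference chromosomes, and inexact copies or copies absent from the assembly, which would raise the signal, were not looked for. The fifth was Sgk1, a kinase induced by serum and glucocorticoids, with 26.0 and 20.2 at 112 kb downstream, against 0.897 and 0.924. Curated starts lay at both, for proteins of 431 residues at the internal and 524 at the upstream start. The lowest ratios were at March3, Dcaf6, Rtn4, Arhgap12 and Jarid2. Rtn4, the Nogo gene, had 0.516 and 0.612 at the start of its 199-residue form, which is known as Nogo-C and is found in muscle, against 20 and 16.5 at the start of the 1162-residue form. Jarid2, a partner of Polycomb complex PRC2, had 1.23 and 1.30, against 32.9 and 27.1.

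Muscle genes with internal promoters known from textbooks formed a list of 20 genes, chosen for that property. Of the 18 with an internal TSS under the rule, 14 held an open internal site, with 33 sites in all and median signals of 2.68 and 2.00. The background over all genes was the 21.4% given above, and since the list was picked for known internal starts the count describes these genes and no more.

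Of the thin-filament and sarcomere genes, Tpm1 and Tpm3 encode tropomyosins, whose long forms lie on the thin filament and whose short forms start internally and belong to the cytoskeleton. The Tpm1 internal promoter had 23.2 and 19.8, against 7.30 and 8.14 at the first promoter, so both were open and the start of the short form was 3.18-fold the stronger in replicate 1 and 2.43-fold in replicate 2. Tpm3 had 12.2 and 10.2 at its internal start, for 248 residues, and no open site at the start of the 285-residue form. Myl1, the fast light-chain gene, makes MLC1f from its first promoter and MLC3f from an internal one. The MLC3f start had 0.904 and 0.572, against 1.54 and 1.57 at the MLC1f start, and lay 10 kb downstream. Speg, a kinase of the striated muscle triad whose short form is known as APEG-1, had 3 neighbouring sites at 24.8 to 25.3 kb. The strongest had 5.85 and 5.12, against 3.88 and 3.63 at the first promoter, and began a protein of 113 residues against 3262.

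Genes of the membrane skeleton and of the links from nuclei to filaments gave most of the rest. Plec encodes plectin, which ties intermediate filaments to Z-discs, mitochondria and the membrane through isoforms that differ in their first exon. It held 10 open sites in 5 clusters, the most of any gene, at 23.4 to 36.9 kb, with signals of 0.516 to 5.88 in replicate 1 and 0.399 to 6.02 in replicate 2. Its first promoter had 2.88 and 2.93, and 6 of the 10 sites exceeded it in both replicates.

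**Figure D4:**
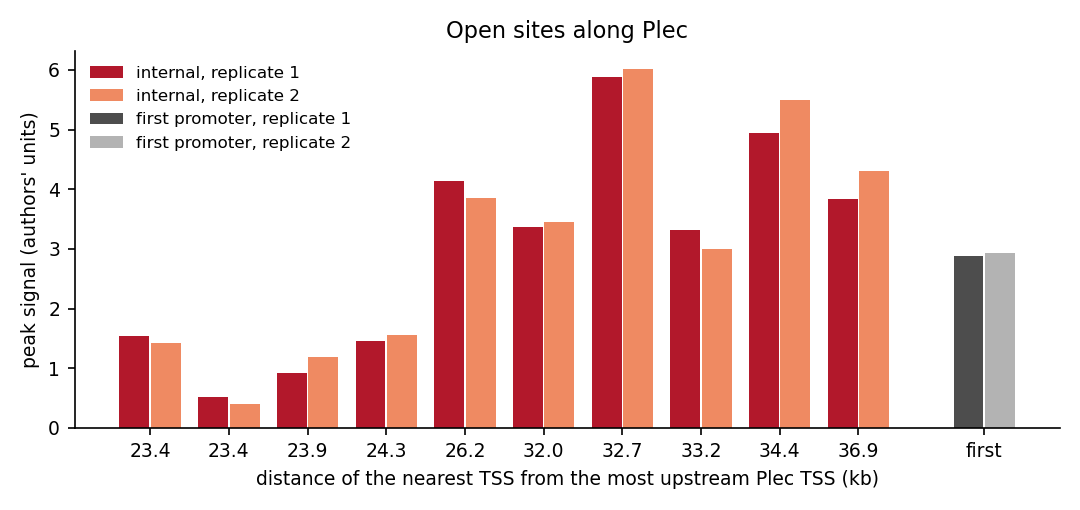
Peak signal (authors' units) in each replicate at the 10 open sites inside Plec, ordered by the distance of the nearest TSS from the most upstream TSS (kb), with the first promoter at the right. The 6 sites at 26.2 to 36.9 kb exceed the first promoter in both replicates, and the 4 sites at 23.4 to 24.3 kb do not.

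Dst, the related cytolinker dystonin, had 3 sites, the strongest at 104 kb with 4.03 and 4.53, against 1.87 and 2.40. Dmd, the dystrophin gene, was open at the start of Dp71 in intron 62, 2100 kb downstream, where a pair of sites had 1.95 and 1.96 and 0.869 and 0.771. Its first promoter, that of full-length dystrophin, had 0.537 and 0.532. Syne1, nesprin 1 of the nuclear envelope, had 3.44 and 3.20 in intron 90, against 1.00 and 1.04 at the first promoter. Ank1 had 2.38 and 1.87 in intron 40, at the start of the small ankyrin of 155 residues that anchors the sarcoplasmic reticulum, against 0.862 and 1.23. In all 5 genes the strongest internal site exceeded the first promoter in both replicates. Utrn, the dystrophin relative utrophin, went the other way: its internal sites had 0.629 and 0.911 and 0.431 and 0.538, against 7.70 and 6.93.

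Calcium handling and signalling genes were mixed. Camk2a had 5.14 and 4.22 at a start for 200 residues, the length of the kinase anchor alphaKAP, and no open first promoter, the start of the kinase itself. Asph, which also encodes junctin and junctate of the sarcoplasmic reticulum, had 2.41 and 1.79, against 17.4 and 13.2 at the start of the full enzyme. Rcan1, a calcineurin inhibitor whose internal promoter responds to calcineurin and NFAT, had 4.49 and 4.14, against 13 and 10.7. Prkag2, a subunit of AMP-activated kinase, had 3 sites with up to 4.56 and 5.24, against 2.90 and 3.02. Ppargc1a, the coactivator PGC-1alpha, had 0.692 and 0.778 at 13.8 kb, its curated start, and no open site at the most upstream TSS. Mylk, Ttn and Fhl1 had internal TSSs and none open in the strict lists, with permissive peaks of 0.622 and 0.778 in Fhl1 alone. Igf1 and Ppp1r12b had no internal TSS that met the rule.

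**Figure D5:**
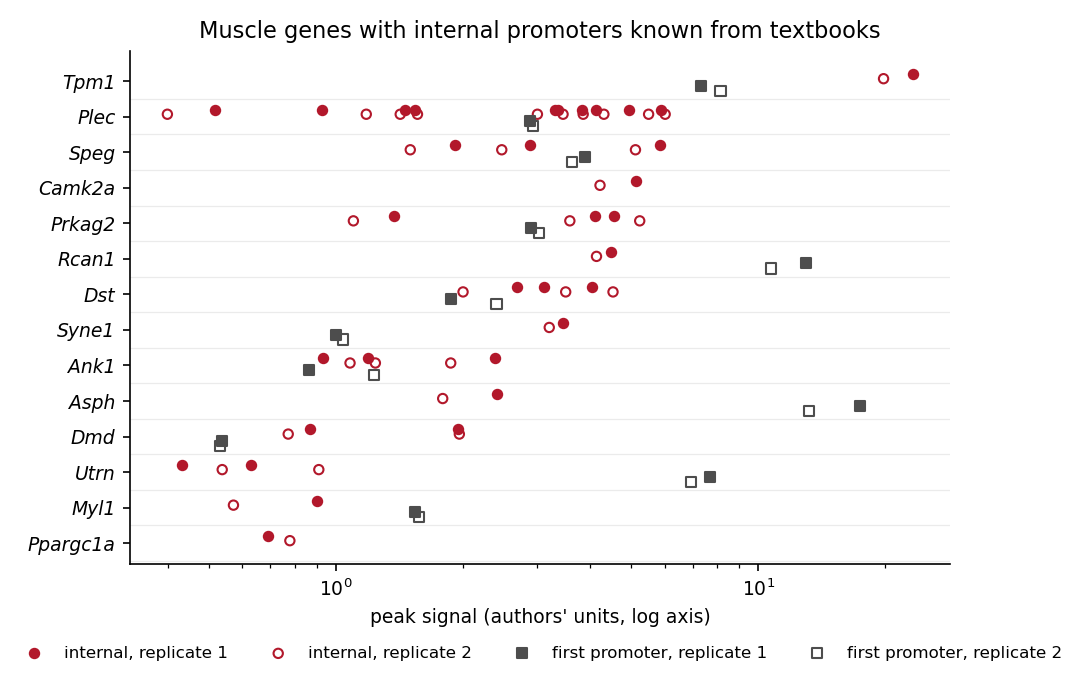
Peak signal (authors' units, log axis) at each open internal site (circles) and at the first promoter (squares, where open) of the 14 muscle genes with a known internal promoter and an open site, with filled symbols for replicate 1 and open symbols for replicate 2. Tpm1, Syne1 and Dmd have their highest internal site to the right of the squares, and Asph, Rcan1, Utrn and Myl1 have all internal sites to the left.

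By role, the lists of muscle and other genes held open internal promoters at these rates, beside 21.4% of all genes with an internal TSS and 22.3% of all internal TSSs. Muscle transcription factors and cofactors had 24 of 45 eligible genes and 39.2% of their internal TSSs open. Signalling genes had 27 of 42 and 37.5%, sarcomere and Z-disc genes 7 of 18 and 35.4%, and membrane skeleton genes 23 of 34 and 35.2%. Energy metabolism had 11 of 27 and 31.4%, excitation-contraction coupling 6 of 17 and 29.3%, and the neuromuscular junction 2 of 5 and 21.4%. Neuron genes with known internal promoters had 11 of 21 genes and 25.8% of TSSs. Endothelial markers had 2 of 7 genes and 37.5% of 16 TSSs, Schwann-cell and glial markers 1 of 2 genes and 3 of 15 TSSs, and housekeeping genes 1 of 1 gene and 2 of 2 TSSs. Fibroblast and macrophage or blood markers had none of 3 genes each. The lists were chosen with results of these data known and share genes, so the shares describe them and are not compared.

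The leading sites of these lists were as follows. Of the transcription factors, Hdac5, a deacetylase that represses MEF2, had 17.7 and 14.1, close to the 18.8 and 16.2 of its first promoter. Nr4a1, an orphan nuclear receptor, had 13.7 and 12.1, against 3.73 and 4.59. Nr3c1, the glucocorticoid receptor, is known for a row of alternative untranslated first exons, and 6 open sites lay at 28.1 to 32.2 kb, the strongest with 12.8 and 10.7, while its upstream start was not open. In signalling, Akap7, a kinase anchor, had 12.1 and 11.8 with no open first promoter. Pde4dip, myomegalin, had 6 sites with up to 11.3 and 9.82, against 1.5 and 1.25. Pde4d, a cyclic AMP phosphodiesterase, also had 6, all weak, with up to 1.87 and 1.93 and none at the first promoter. Rreb1, a zinc-finger factor, had 7 sites, with up to 8.58 and 7.84, against 1.82 and 1.8. In Nr4a1, Akap7 and Rreb1 a curated start lay at an open internal site and none at the first promoter.

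In metabolism the acetyl-CoA carboxylases, which make malonyl-CoA, held the strongest sites. Acaca had 18.2 and 15.8, against 3.69 and 2.98, and Acacb, the mitochondrial form of muscle, had 17.1 and 14.8, against 1.93 and 1.60. Both sites lie at GENCODE starts with no curated RefSeq counterpart, and the first promoters of both genes had none either. Lpin1, a phosphatidate phosphatase, had 12 and 9.35 and no open first promoter. In the skeleton list, Nav2 had 11.1 and 10.4, against 0.742 and 0.771 at a start 287 kb upstream. Macf1 had 9.39 and 9.34 in intron 57, and Tns1, tensin 1, had 9.63 and 7.80, against 1.31 and 1.5. Among calcium genes, the exchanger Slc8a1 had 2.76 and 2.78 and the membrane-repair gene Dysf had 1.96 and 2.39, against 1.93 and 1.77. Colq, the collagen tail of acetylcholinesterase at the neuromuscular junction, had 1.32 and 1.30.

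Genes best known from other cells, and housekeeping genes, also held open internal sites. Dlg4, which encodes the synaptic scaffold PSD-95, had its strongest pair at 5.45 and 5.56 and at 4.66 and 4.99, against 2.23 and 2.44. The endothelial genes Ptprb and Pecam1 had 1.71 and 0.951 and 0.841 and 0.744, with no open first promoter. Eef1a1, a translation factor, had 12.3 and 9.53, against 2.52 and 3.62. In Ptprb, Pecam1 and Eef1a1 a curated start lay at an open internal site and none at the first promoter. Cell-type markers were counted as open at any promoter, beside the 58.7% of protein-coding genes with an open first promoter. All 10 muscle-fibre markers were open. So were 4 of 6 endothelial, 4 of 5 fibroblast, 2 of 4 Schwann-cell and 2 of 4 neuron markers. None of 5 macrophage, 3 erythroid or 3 liver markers was open. The partial counts do not show which other cells were present. In bulk tissue, a site open in few cells and a site weakly open in many cannot be told apart.

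Footprints lay in both replicates in 91.1% of internal promoters (89.5 to 92.4%), in 88.2% of first-promoter sites, in 96.0% of intronic sites and in 92.3% of all open sites. Their density was 1.49 and 1.46 footprints per 100 bp at internal promoters and 1.56 and 1.53 at first promoters. The share with a footprint was thus close to that of open sites in general.

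The GC box, the ETS consensus and the CCAAT box were more frequent at internal promoters than at intronic sites. In 150 bp around the midpoint, the GC box (GGGCGG) was present in 41.1% (38.6 to 43.6%) of internal promoters, 56.4% of first-promoter sites, 9.24% of intronic sites and 24% of all open sites. The ETS consensus (CCGGAAG) was in 5.03%, 10.3%, 1.27% and 4.22% of the same classes, and the CCAAT box in 19.1%, 22.4%, 16.4% and 18.0%. Split by composition, the GC box was in 63.8% of rich internal promoters and 63.9% of rich first-promoter sites. Among sites that were not rich it was in 22.2% and 34.5%. The 76 internal promoters with an ETS match had median signals of 7.09 and 6.46, and the 1436 without had 2.62 and 2.39. The 621 with a GC box had 4.19 and 3.90, and the 891 without had 2.11 and 1.95. These medians were not split by composition.

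The myogenic E-box (CAGCTG) was in 266 internal promoters, 17.6% (15.8 to 19.6%). First-promoter sites held it in 10.5%, intronic sites in 26.3% and all open sites in 20.8%. Among internal promoters it was in 9.75% (7.75 to 12.2%) of the rich class and in 24.1% (21.3 to 27.2%) of the others. With the E-box the median signals were 2.63 and 2.32, and without it 2.73 and 2.59. The TEAD site (CATTCC) was in 6.88% of internal promoters, 5.16% of first-promoter sites and 10.4% of intronic sites, the AP-1 site (TGANTCA) in 4.56%, 2.11% and 8.16%, and the RUNX site (TGTGGT) in 7.14%, 4.74% and 11.2%. For all 4 motifs internal promoters lay between the other classes. The MEF2 and CArG consensus sequences were each in 7 internal promoters (0.463%), and in 0.445% and 0.604% of all open sites. All motifs were exact matches on either strand.

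Of the 341 internal promoters with an E-box anywhere in the site, 33 (9.68%, 6.97 to 13.3%) had it whole inside a footprint of each replicate. Of all 17294 open sites with an E-box 13.3% did, of first-promoter sites with one 8.47% (7.32 to 9.79%) and of intronic sites with one 14.8% (13.9 to 15.7%). The 5 strongest are shown in 30 bases of the gene's strand (mm10 reference), with the E-box in capitals. Unlike the sequences above, these were not limited to bases outside exons, so they can include exon bases.
Tollip, chr7:141902415-141902444, - strand: cggggcgactgtCAGCTGactgaagagccg
Pik3r2, chr8:70769603-70769632, - strand: cctgacctcatgCAGCTGcgcaagatcagg
Cd63, chr10:128909766-128909795, + strand: tgactcaggccgCAGCTGttcccgtgtcac
Tns1, chr1:73963228-73963257, - strand: acccaggggaccCAGCTGgctgggattaca
Dab2, chr15:6386605-6386634, + strand: tgcgatcgccccCAGCTGgccgggcgcacg
Pik3r2, a regulatory subunit of PI3-kinase, had 13 and 11.3 at this site, against 21.2 and 17.4 at the first promoter. Cd63, a tetraspanin of endosomes, had 11.4 and 10.6, and Dab2, an endocytic adaptor, had 6.38 and 5.50, both with no open first promoter. Neither the 7 sites with a MEF2 consensus nor the 10 with a CArG box anywhere in the site had it inside a footprint of both replicates.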

How the data were processed

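DNase-seq was measured in 2 replicate libraries of gastrocnemius. Per the file headers and columns, the authors deposited for each library peaks with a signal value, per-base hotspot calls with a q-value (false discovery rate, bases listed under 0.05) and footprints called at 0.01. The scaling of the signal and the aligner, callers and versions were not given in the sources used here. Depth in reads is therefore unknown. Strict peak lists held 87558 and 79562 peaks, permissive lists 142031 and 133321.

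Peaks of both replicates were merged at 1 bp overlap in Python. Per-base q-values at promoters were looked up with bedtools 2.31.1. TSSs came from GENCODE M21 (mm10), sequence from GRCm38.p6. Transcripts tagged as incomplete at either end were left out of the coding comparison. Intervals are Wilson intervals at 95%; no test over samples exists with 1 group. Replicate ratios were centred on all open sites. Calculations used Python 3.11.15 with pandas 2.3.3 and were tested on simulated data. Composition used 300 bp and motifs 150 bp around midpoints.

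Genes were named by rule: the highest signals, the highest among genes without a strict peak at the first promoter, the highest and lowest ratios to it, the most sites, list members, the largest replicate differences and E-boxes in footprints. Members and lists were chosen with earlier results of these data known. Alternatives changed the peak list, overlap, window, distances, transcript sets and motif or composition window, and left out each replicate. Some items are not reported here.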

Additional observations from a re-analysis of the deposited data

How the results depend on the processing

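The median log2 ratio to the first promoter stayed below 0 under every setting run for it. The 1512 internal promoters became 2479 with all transcript types. The share of internal promoters in genes with an open first promoter, 63.0%, was 69.6% with permissive lists, 52.0% with the stronger 50% of peaks, 57.5% with a 250 bp window, 66.7% with a 1000 bp window, 66.6% with all transcript types, 59.9% with the most upstream TSS alone, 67.8% with curated starts at both promoters and 65.2 to 65.8% without either replicate. The median log2 ratio to the first promoter, -0.76, was -1.06 with permissive lists, -0.58 with the stronger 50%, -0.73 with 50% reciprocal overlap, -0.60 and -0.85 with the 250 and 1000 bp windows, -0.69 beyond 2 kb and beyond 10 kb, -0.60 without incomplete starts, -1.15 with all transcript types, -0.78 with other genes limited to protein-coding, -0.44 with curated starts at both and -0.95 to -0.91 without either replicate. The share with footprints, 91.1%, was 84.9% with permissive lists, 96.9% with the stronger 50%, 93.9% with the 250 bp window and 81.5 to 83.1% without either replicate. The rich share, 45.4%, was 38.8% with permissive lists, 53.4% with the stronger 50%, 41.5% with the 1000 bp window, 37.2% with all transcript types and 42.7 to 44.5% without either replicate. The E-box share, 17.6%, was 21.1% in 200 bp and 17.2 to 17.3% without either replicate. The cause of these shifts was not tested. Curated starts were chosen as a setting after seeing the data.

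No paired analysis was possible because the labels give 1 group. The scale of the signal is not known, so levels are compared within a library, and a site absent from the strict lists can still be weakly open.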
